A study of Mus musculus with 77 samples.

Results

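The regions described here are 4170 stretches of the mouse autosomes that carried both an active and a Polycomb-linked histone mark in WT mb1-cre+ B cells after 24 h of CpG. H3K27ac, the acetylation of histone H3 at active promoters and enhancers, and H2AK119Ub, the ubiquitin that Polycomb repressive complex 1 places on histone H2A, were both called there. H3K27me3, the methylation placed by Polycomb repressive complex 2, was not. A stretch entered if it ran for at least 500 bp under H3K27ac peaks of at least 2 of the 3 lists and under H2AK119Ub peaks of at least 2 of the 3, and touched no peak of the 4 H3K27me3 lists. The stretches were thus chosen by the peaks measured in that group, and its own coverage of these stretches (76.3% to 91.0% of their bases for H2AK119Ub) describes the choice and is no result. All autosomal stretches of at least 500 bp, sorted by the marks that the same group carried, numbered 48104. Among these were 9186 with H3K27ac alone, 9024 with H2AK119Ub alone and 337 that carried both marks and also touched an H3K27me3 peak.

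The marks were mapped by CUT&RUN, in which an antibody brings a nuclease to the marked nucleosomes and the DNA cut loose is sequenced, in CD23+ B cells from the spleens of female mice. CD23 is a surface receptor of follicular B cells. Each of 77 libraries gave 1 list of peaks, in 24 groups of 3 libraries, or of 4 or 5 for H3K27me3 in the mb1-cre system. The mb1-cre groups were WT (mb1-cre+) and Xist fl/fl ; mb1-cre+ cells, so both carried the Cre, which mb1 (Cd79a) regulatory DNA drives in the B lineage of the animal. Xist is the long non-coding RNA through which female cells shut down 1 of their X chromosomes. These cells were taken at 0 h (unstimulated) or after 24 h in 1 µM CpG. The TAT-Cre groups were WT and Xist fl/fl cells that received 80 µg of cell-permeable Cre for 45 min outside the animal and then 24 h of 1 µM CpG. Their 0 h cells had no Cre, so a genotype difference there is a baseline. Ages and animals are not given beyond the labels' biological replicate numbers.

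CpG DNA is a ligand of Toll-like receptor 9 and drives B cells into growth and division. Canonical Polycomb repression couples H2AK119Ub to H3K27me3, while variant forms of Polycomb repressive complex 1 can place H2AK119Ub without H3K27me3, often at promoters rich in CG dinucleotides, and are known to bind active genes too. Acetylation and methylation compete for the same lysine of histone H3, whereas H2AK119Ub sits on another histone and can share a nucleosome with either.

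The stretches had a median length of 3.58 kb (interquartile range 2.38 to 5.22 kb, longest 26.0 kb) and covered 17.4 Mb. The shortest was 501 bp and the longest left out for its length was 495 bp. Just inside the limit, 40 stretches were under 600 bp, and just outside it another 40 had at least 400 bp. The H3K27ac domains that held them had a median length of 8.48 kb, of which the shared stretch took a median of 42.6%, against 93.2% of an H2AK119Ub domain with a median length of 4.79 kb. In 1844 cases (44.2%) the stretch was a whole H2AK119Ub domain. In 520 (12.5%) it was a whole H3K27ac domain. It lay inside a larger H3K27ac domain in 1842 (44.2%) and inside a larger H2AK119Ub domain in 512 (12.3%).

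A transcription start lay inside 1613 of the 4082 stretches on the 18 autosomes with start positions in the reference (39.5%). The share was 27.8% of the stretches with H3K27ac alone and 18.5% of those with H2AK119Ub alone. Another 1497 (36.7%) lay within a gene without reaching a start. Around the starts of 1590 coding genes the stretch reached a median of 1814 bp upstream and 1876 bp downstream. It thus lay nearly evenly on both sides of the start. The promoters of these genes, taken as 250 bases before to 50 after the start from RefSeq (GRCm38.p6), are shown for 5 genes that the results below turn on, 5′ to 3′ on the strand of the gene, with every CG dinucleotide in capitals. Nr4a1 encodes an immediate early nuclear receptor of activated lymphocytes, Brd3 a bromodomain protein that reads acetylated histones, Hdac7 a deacetylase of lymphocytes, Cd37 a tetraspanin of mature B cells and Bcl2l1 the survival protein BCL-XL. The first 4 gained H2AK119Ub between 0 h and 24 h, and the stretch at the last already carried H2AK119Ub at 0 h.
Nr4a1 (chr15:101266596-101266895, plus strand): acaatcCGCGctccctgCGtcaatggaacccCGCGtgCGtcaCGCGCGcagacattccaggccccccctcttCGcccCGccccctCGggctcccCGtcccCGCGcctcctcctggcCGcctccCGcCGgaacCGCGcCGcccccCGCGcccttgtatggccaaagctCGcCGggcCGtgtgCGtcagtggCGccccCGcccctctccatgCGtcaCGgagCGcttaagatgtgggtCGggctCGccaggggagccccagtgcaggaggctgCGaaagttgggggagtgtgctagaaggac
Brd3 (chr2:27475349-27475648, minus strand): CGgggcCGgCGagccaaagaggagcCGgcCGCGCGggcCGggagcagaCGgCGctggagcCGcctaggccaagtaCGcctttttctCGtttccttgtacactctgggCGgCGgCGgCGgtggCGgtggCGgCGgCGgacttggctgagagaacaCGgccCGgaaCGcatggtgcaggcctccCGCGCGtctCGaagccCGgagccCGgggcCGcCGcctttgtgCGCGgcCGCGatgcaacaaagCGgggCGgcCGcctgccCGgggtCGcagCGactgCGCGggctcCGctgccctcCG
Hdac7 (chr15:97831446-97831745, minus strand): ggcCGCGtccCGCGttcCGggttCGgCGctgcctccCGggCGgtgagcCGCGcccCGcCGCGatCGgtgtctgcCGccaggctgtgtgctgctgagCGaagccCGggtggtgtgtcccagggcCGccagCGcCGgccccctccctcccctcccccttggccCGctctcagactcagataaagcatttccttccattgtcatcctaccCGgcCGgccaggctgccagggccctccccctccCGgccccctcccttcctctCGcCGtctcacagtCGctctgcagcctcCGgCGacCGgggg
Cd37 (chr7:45238790-45239089, minus strand): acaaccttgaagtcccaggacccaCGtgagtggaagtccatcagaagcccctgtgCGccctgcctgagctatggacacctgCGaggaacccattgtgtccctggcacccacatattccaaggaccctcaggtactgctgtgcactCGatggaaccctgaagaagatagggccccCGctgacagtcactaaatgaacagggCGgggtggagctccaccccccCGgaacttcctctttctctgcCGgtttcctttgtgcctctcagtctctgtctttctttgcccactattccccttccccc
Bcl2l1 (chr2:152828440-152828739, minus strand): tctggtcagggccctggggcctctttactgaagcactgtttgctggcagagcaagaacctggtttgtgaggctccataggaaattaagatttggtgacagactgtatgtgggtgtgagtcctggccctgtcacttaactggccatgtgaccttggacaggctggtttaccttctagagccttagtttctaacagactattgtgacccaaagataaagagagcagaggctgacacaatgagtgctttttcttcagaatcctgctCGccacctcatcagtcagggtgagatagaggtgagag
The observed-to-expected ratio of CG dinucleotides was 0.913 at Nr4a1, 1.1 at Brd3 and 0.795 at Hdac7. At Cd37 it was 0.336, and the Bcl2l1 window held a single CG (ratio 0.0558). The 5 windows thus span CG-rich and CG-poor starts, and the shared promoters as a whole leaned to the CG-rich side. Each gene entered with a single start, the first listed that lay in the stretches. Other starts of the same gene, also of Bcl2l1 and Cd37, may differ and were not examined. Over all 1590 promoters the median ratio was 0.758, with 72.0% at 0.6 or more. It was 0.841 with 80.1% for 2649 promoters in stretches with H3K27ac alone, and 0.595 with 49.7% for all 16457 coding autosomal promoters. The core of the ETS motif (CCGGAAG on either strand), which is common at the promoters of widely expressed genes, stood in 14.2% of the shared promoters, 26.1% of those with H3K27ac alone and 12.3% of all. The GC box (GGGCGGG on either strand), which overlaps CG-rich sequence by its letters, stood in 52.1%, 47.3% and 34.7%. These shares describe letters in a window and were not tested.

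The 4170 stretches touched 3806 genes when 2 kb was allowed on each side of a gene, of which 2934 were protein-coding, 14.2% of the 20665 coding autosomal genes. The genes of resting and activated B cells were hit more often than that. The rule asked for H3K27ac peaks in activated B cells, which favours genes active in these cells. A share above that of all coding genes is thus largely built in. A stretch touched 13 of 16 transcription factors of B cell identity, among them Pax5, Foxo1, Ikzf1, Ikzf3, Ets1, Irf8, Pou2f2, Spib and Spi1. It touched 12 of 19 genes of the follicular surface, homing and MHC class II, 27 of 45 genes of activation, NF-κB and AP-1, 9 of 18 genes of B cell receptor signalling and 10 of 22 of Toll-like receptor and interferon signalling. Acetyltransferases, deacetylases and bromodomain proteins counted 10 of 21, cell cycle and ribosome biogenesis genes 11 of 28 and Polycomb subunits 11 of 33. Lower counts were found for plasma cell and germinal centre genes (4 of 15) and housekeeping genes (3 of 14). Stretches with H3K27ac alone touched 14 of the 16 identity factors, 16 of the 19 follicular genes, 26 of the 45 activation genes and 17 of the 18 receptor signalling genes, beside 5741 of all 20665 coding genes, so most of these genes also had acetylated stretches without H2AK119Ub. None of 35 developmental Polycomb targets, such as the Hox and Pax genes of the embryo, had one, but the rule left out every stretch with an H3K27me3 peak, which largely fixes that count.

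**Figure D1:**
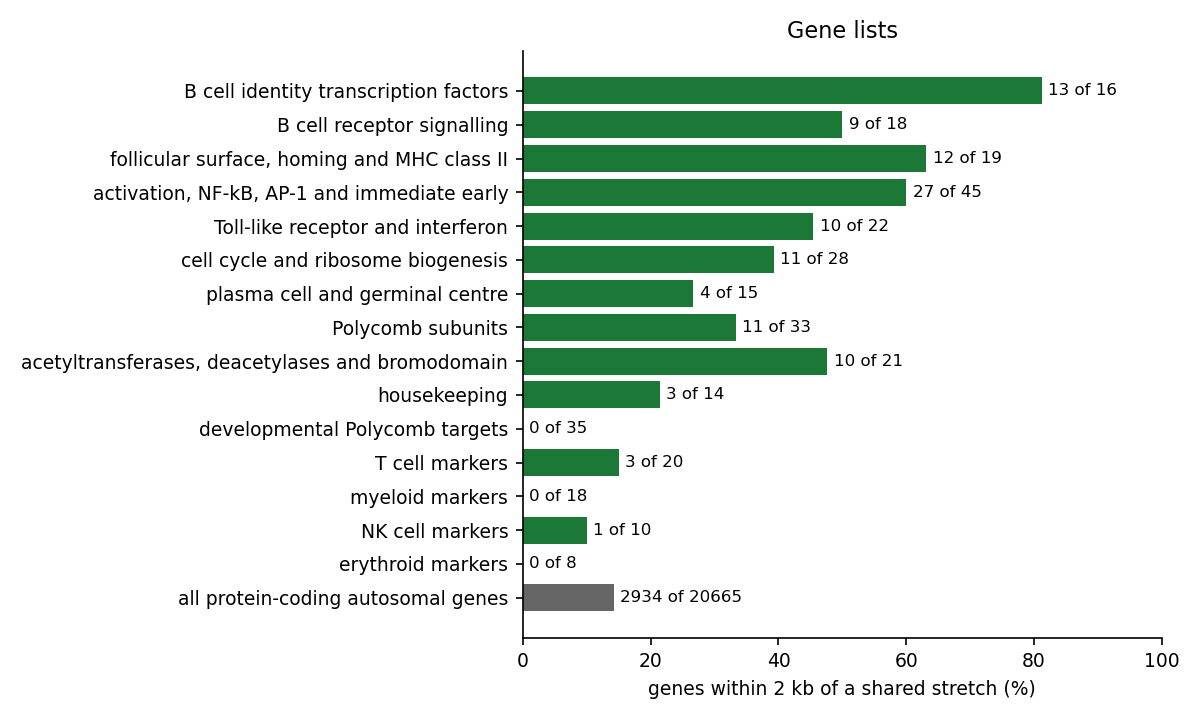
Share of the genes of each list (%) that lay within 2 kb of a shared stretch, with the counts beside each bar; the grey bar is all protein-coding autosomal genes. B cell lists reach 50.0% to 81.3%, against 14.2% of all coding genes. The rule for H3K27ac in activated B cells favours these lists. The empty bar of the developmental targets is largely set by the rule against H3K27me3.

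The labelled cell type was checked on H3K27ac. All 10 B cell markers carried an H3K27ac peak in every one of the 24 H3K27ac libraries. Of 20 T cell markers 1 to 5 had one, of 18 myeloid markers 0 to 2, of 10 NK cell markers at most 1 and of 10 erythroid markers at most 1. The shared stretches touched 3 of the T cell markers, among them Cd2 and Lck, and the NK marker Klrb1c, and no myeloid or erythroid marker. By the test over time described below, 4 of 6 stretches at these T cell markers gained H2AK119Ub and 2 of 4 fell in H3K27ac, and both Klrb1c stretches rose in H3K27ac (median difference 2.81). Of all regions tested, 18.7% gained H2AK119Ub, 33.1% rose in H3K27ac and 9.48% fell. The part that other cells had in these was not tested. In bulk cells a mark gained by some cells and a partial gain in every cell cannot be told apart, and 2 marks called on 1 stretch need not share a cell or an allele.

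List length differed between libraries and bears on every value below. H2AK119Ub lists held 2004 to 40688 peaks and H3K27ac lists 1336 to 10393. At 0 h, 4 H2AK119Ub lists held under 3000 peaks (WT mb1-cre replicates 1 and 3, Xist fl/fl mb1-cre replicate 3 and TAT-Cre WT replicate 1), and 3 H3K27ac lists held under 2000 (TAT-Cre WT replicate 2, TAT-Cre Xist fl/fl replicates 1 and 3), while the longest H3K27ac list was TAT-Cre Xist fl/fl 0 h replicate 2. A longer list covers more of any region, so each coverage is also given as a fold over the share of all autosomal bases that the same list covered.

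H2AK119Ub covered little of these stretches at 0 h and much of them at 24 h in every system and genotype outside the group that chose them. In TAT-Cre WT cells it covered 3.04%, 23.5% and 31.4% of their bases at 0 h and 62.4%, 58.8% and 42.7% at 24 h. In TAT-Cre Xist fl/fl cells the values were 21.1%, 11.8% and 31.8% at 0 h and 50.9%, 38.4% and 70.7% at 24 h. In Xist fl/fl mb1-cre cells they were 17.5%, 35.9% and 4.13% at 0 h and 47.6%, 51.4% and 45.6% at 24 h. Times did not overlap within any of these 3 pairs. The 0 h lists of WT mb1-cre cells covered 2.85%, 40.6% and 4.60%. As a fold over the autosomes, the 12 lists at 0 h ranged from 1.74 to 6.48 (median 4.98) and the 9 lists at 24 h from 8.23 to 13.6 (median 10.7). The 2 times were thus apart also as folds, and the short lists gave the lowest folds at 0 h. The folds at 0 h therefore still varied with list length, and its part in the difference between times cannot be read from them. The stretches were chosen for peaks of H3K27ac and H2AK119Ub after 24 h of CpG. A lean towards higher values at 24 h is thus built into every comparison of these 2 marks over time. In stretches with H3K27ac alone the folds were 0.259 to 1.10 at 0 h and 1.16 to 2.23 at 24 h, and in those with H2AK119Ub alone, which the same lists also chose, 2.17 to 6.91 and 7.29 to 10.2.

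H3K27ac covered 19.8% to 65.6% of the bases of the shared stretches in the 12 lists at 0 h and 37.7% to 89.2% in the 9 lists at 24 h. In Xist fl/fl mb1-cre cells the values were 45.2%, 45.1% and 59.2% at 0 h and 82.6%, 72.4% and 89.2% at 24 h. In TAT-Cre WT cells they were 48.1%, 19.8% and 42.8%, then 70.8%, 54.0% and 78.7%. In TAT-Cre Xist fl/fl cells, 23.7%, 57.0% and 23.0% at 0 h overlapped 45.8%, 37.7% and 58.9% at 24 h. The fold over the autosomes was 21.7 to 28.3 at 0 h and 18.3 to 29.2 at 24 h. Summed over all stretches, the H3K27ac folds of the 2 times overlapped, although single stretches went both ways. With lists trimmed to 1336 peaks the fold had a median of 22.3 (19.8 to 27.8) at 0 h and 18.9 (14.5 to 23.8) at 24 h. H3K27me3 covered at most 1.11% of their bases in any library.

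**Figure D2:**
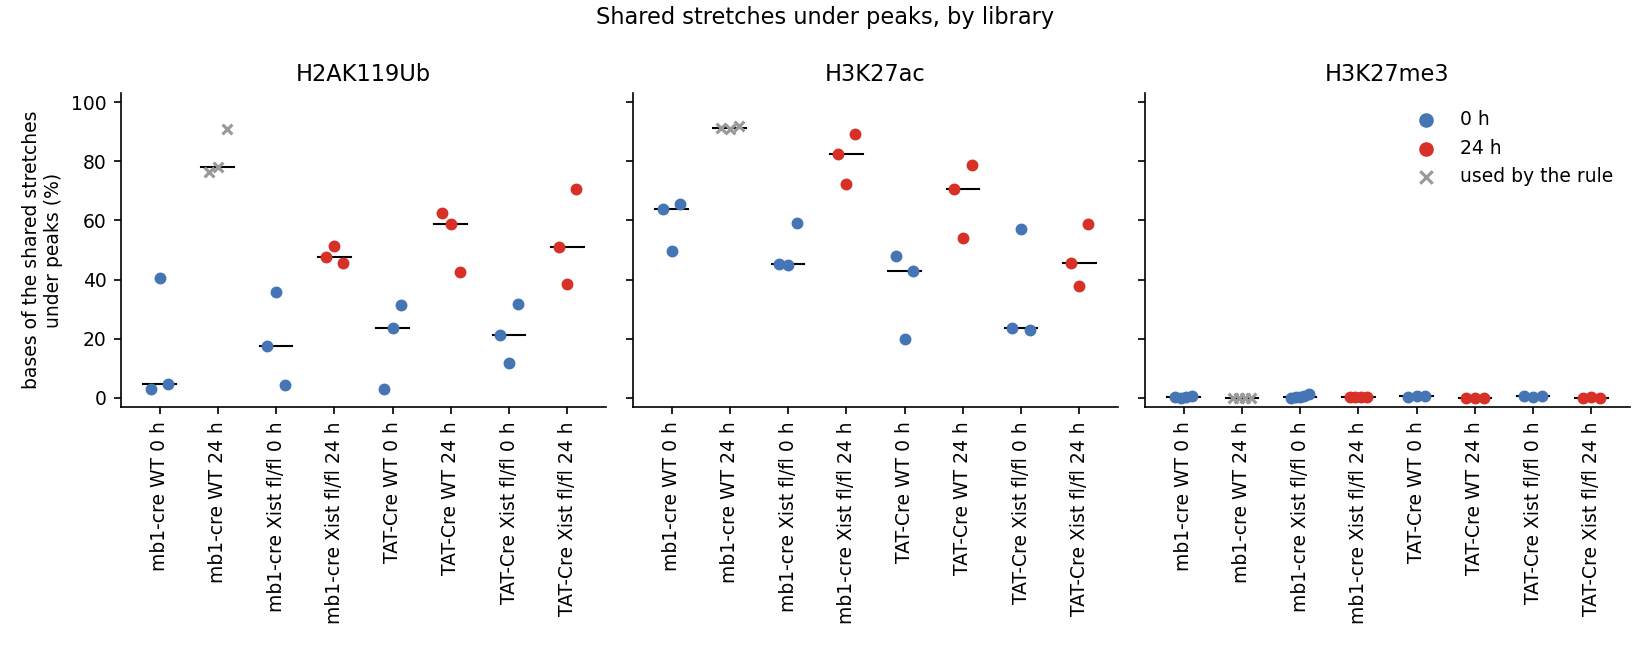
Share of the bases of the 4170 shared stretches under peaks (%) in each library, by mark, system, genotype and time; points are libraries, lines are medians, and grey crosses are the WT mb1-cre 24 h lists that chose the stretches. H2AK119Ub at 24 h (38.4% to 70.7%) lies above 0 h within each pair of groups, H3K27ac is already present at 0 h, and H3K27me3 stays at or below 1.11%.

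Around the starts inside shared stretches, H2AK119Ub was highest near the start itself. Only starts inside these stretches were taken, and peaks of both marks at 24 h chose the stretches. Height near the start and higher shares at 24 h are thus largely built in, and the values below describe them. The median share of starts under H2AK119Ub was highest within 500 bp of the start, at 67.1% in TAT-Cre WT, 63.2% in TAT-Cre Xist fl/fl and 54.5% in Xist fl/fl mb1-cre cells at 24 h, against 29.8%, 30.9% and 25.8% in their 0 h groups. In WT mb1-cre cells at 0 h no peak at the start was seen, and the highest share was 5.72%. H3K27ac at 24 h was highest at the start in Xist fl/fl mb1-cre cells (88.9%), 750 bp downstream in TAT-Cre WT cells (67.3%) and 500 bp downstream in TAT-Cre Xist fl/fl cells (43.0%). The highest shares at 0 h were 34.0%, 32.7% and 13.1% in the same order, so both marks were more frequent around these starts at 24 h.

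**Figure D3:**
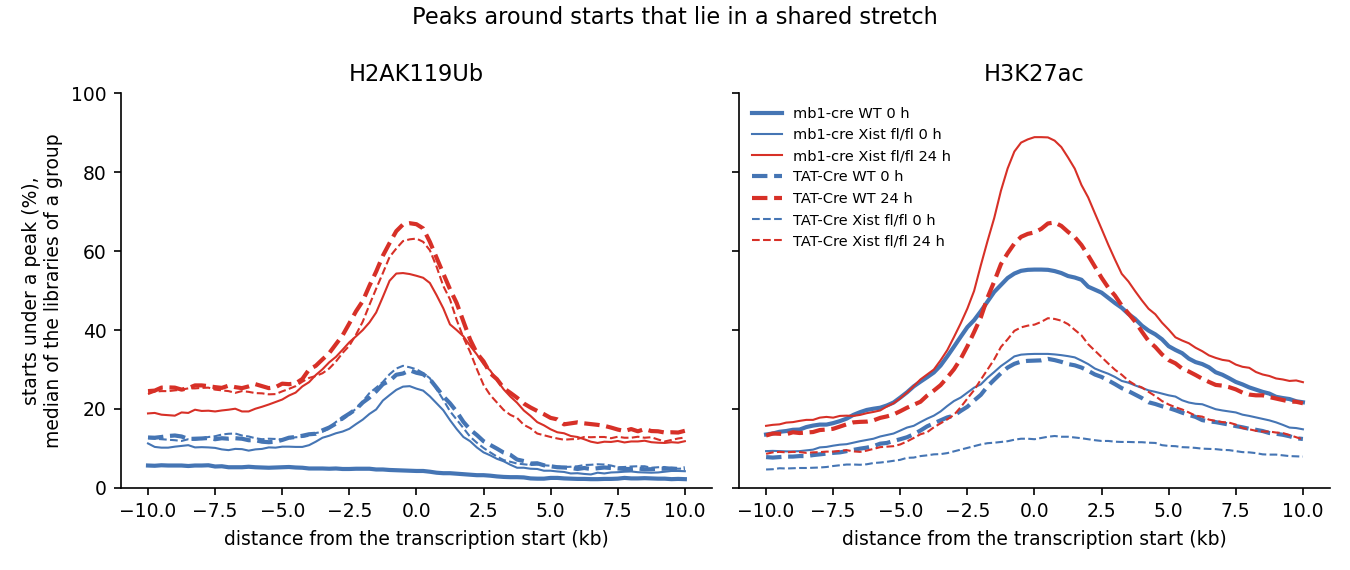
Share of starts inside shared stretches that lay under a peak (%), by distance from the transcription start (kb, negative upstream), for H2AK119Ub and H3K27ac; each line is the median of the libraries of 1 group, and the group that chose the stretches is left out. At 24 h H2AK119Ub forms a peak of 54.5% to 67.1% within 500 bp of the start in 3 groups, against at most 30.9% at 0 h. Taking only starts inside the stretches favours such a peak and higher values at 24 h.

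Region by region, a stretch was taken to carry a mark in a group if at least 2 lists covered at least 50% of its length. At 0 h both marks together were found on 66 stretches (1.58%) in WT mb1-cre, 136 (3.26%) in Xist fl/fl mb1-cre, 115 (2.76%) in TAT-Cre WT and 50 (1.20%) in TAT-Cre Xist fl/fl cells. At 24 h they were found on 1543 (37.0%), 1644 (39.4%) and 959 (23.0%) in Xist fl/fl mb1-cre, TAT-Cre WT and TAT-Cre Xist fl/fl cells. The joint state was found in all 3 of these groups on 461 stretches and in none on 1726. It was absent from all 4 groups at 0 h on 3910 (93.8%). Applied to the lists of each group in its own right, the rule gave 127, 402, 387 and 240 stretches at 0 h in WT mb1-cre, Xist fl/fl mb1-cre, TAT-Cre WT and TAT-Cre Xist fl/fl cells, and 2445, 3988 and 2038 at 24 h in the last 3. Of the bases of those 24 h stretches, 72.6%, 62.5% and 67.8% lay in the 4170 stretches, which in turn held 38.9%, 38.4% and 24.4% of their own bases there.

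Signal was compared region by region with limma, on the log2 of 1 plus the signal of a region in ppm per kb, where ppm is its part of the summed autosomal peak signal of the library. All groups entered except WT mb1-cre at 24 h. The change from 0 h to 24 h was the mean of the changes in Xist fl/fl mb1-cre, TAT-Cre WT and TAT-Cre Xist fl/fl cells. A region was called at a Benjamini-Hochberg adjusted p under 0.05 over all regions tested, and regions needed a peak in at least 3 libraries. A value of 0 means that a list had no peak there, so differences against 0 depend on the 1 that was added and are no fold changes. Because each library sums to the same total, the signal share of a region can fall when a list grows elsewhere.

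H2AK119Ub rose on 1618 of the 3906 shared stretches tested (41.4%) and fell on 33 (0.845%). Over all 38679 regions tested, 18.7% rose and 5.9% fell. The shared stretches were chosen for an H2AK119Ub peak after 24 h of CpG. A lean towards higher values at 24 h is therefore built into this comparison. The median difference was 1.10 on the log2 scale for the shared stretches and 0.45 for all regions. In stretches with H3K27ac alone 974 of 5484 rose (17.8%), and in those with H2AK119Ub alone 1902 of 8121 (23.4%). Within single pairs of groups, 427 stretches rose and 7 fell in Xist fl/fl mb1-cre cells (10.9% and 0.179%, against 3.47% and 2.44% of all regions), 219 and 0 in TAT-Cre WT cells (5.61%, against 1.97% rising and 0.928% falling), and 133 and 1 in TAT-Cre Xist fl/fl cells (3.41%, against 1.5% and 0.701%). Without the 4 short lists at 0 h 1032 rose and 45 fell, and without replicate 1 of every group 460 and 13. With every list trimmed to its 2004 strongest peaks, 481 of the stretches could be tested, and 191 rose and 37 fell, where over all regions 1247 rose and 2146 fell.

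H3K27ac rose on 1271 of 3883 shared stretches (32.7%) and fell on 501 (12.9%), beside 33.1% and 9.48% of all 14986 regions tested. The shares of shared stretches that rose or fell thus lay near those of all regions. Since H3K27ac peaks at 24 h also chose the stretches, a lean towards higher H3K27ac at 24 h is built in here too. The median difference was 0.92 and that of all regions 0.80. Within single pairs of groups 937 stretches rose and 250 fell in Xist fl/fl mb1-cre cells (24.1% and 6.44%, against 24.9% and 4.89% of all regions). In TAT-Cre WT cells 656 rose and 226 fell (16.9% and 5.82%, against 15.4% and 4.08%), and in TAT-Cre Xist fl/fl cells 196 and 63 (5.05% and 1.62%, against 3.88% and 1.33%). The split of calls depended on the scaling: with lists trimmed to 1336 peaks 233 stretches rose and 373 fell, and with the covered share of the region in place of signal 1349 rose and 50 fell.

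Length separated the shared stretches. Among those over 8000 bp, 235 of 305 gained H2AK119Ub (77%), and among those of 500 to 2000 bp 124 of 570 did (21.8%). All 305 of the longest class had peaks enough to be tested, against 570 of 692 of the shortest. The same shares were not taken for other regions, and the part of length in the power to call was not tested. For H3K27ac the longest class had 24.5% rising and 28.5% falling, and the shortest 31.2% and 10.9%. H2AK119Ub rose on 45.6% of the stretches over a start, 41.5% of those in or within 2 kb of a gene without a start and 33.5% of those farther away.

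**Figure D4:**
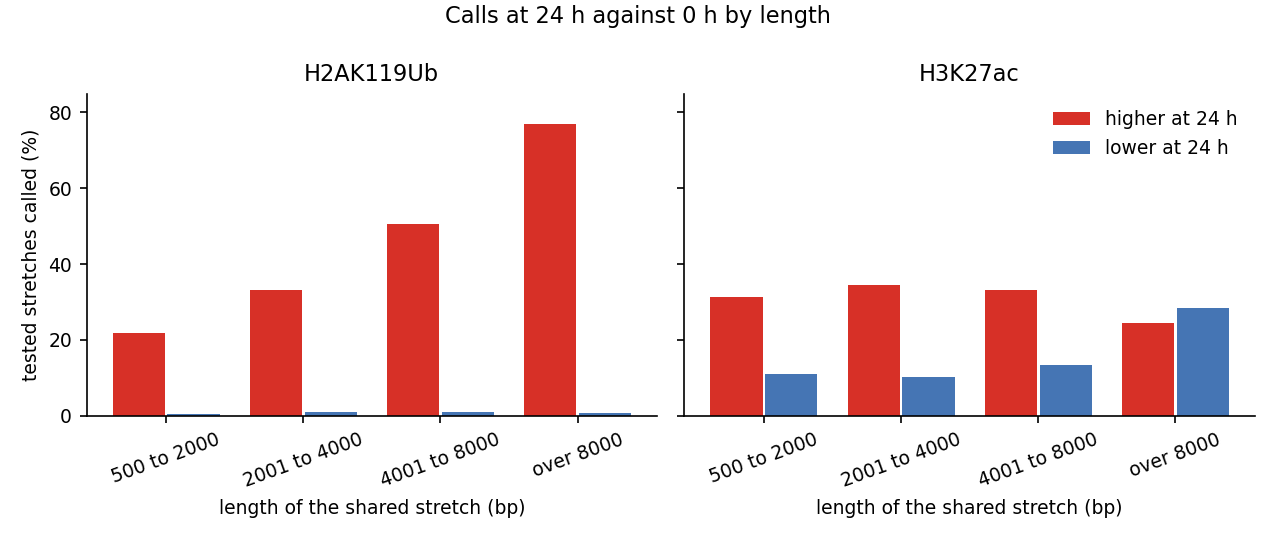
Share of tested shared stretches called higher or lower at 24 h than at 0 h (%), by length of the stretch (bp), for H2AK119Ub and H3K27ac, from the limma fit without the group that chose them. The share that gained H2AK119Ub goes from 21.8% in the shortest class to 77% in the longest, where H3K27ac calls are split between 24.5% higher and 28.5% lower.

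The 2 marks were set side by side on the 3632 stretches tested for both. Where H3K27ac fell in signal share, 266 of 449 (59.2%) gained H2AK119Ub and none lost it. Where H3K27ac was not called, 850 of 1989 (42.7%) gained it, and where H3K27ac rose, 412 of 1194 (34.5%) did. The median lengths of these classes were 4668, 3663 and 3711 bp, and the part of length in the comparison was not tested. Of the 30 that lost H2AK119Ub, 20 rose in H3K27ac. Across stretches the differences of the marks had a Pearson correlation of -0.17 (n = 3632 stretches that share the same libraries and list lengths), given as a description.

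**Figure D5:**
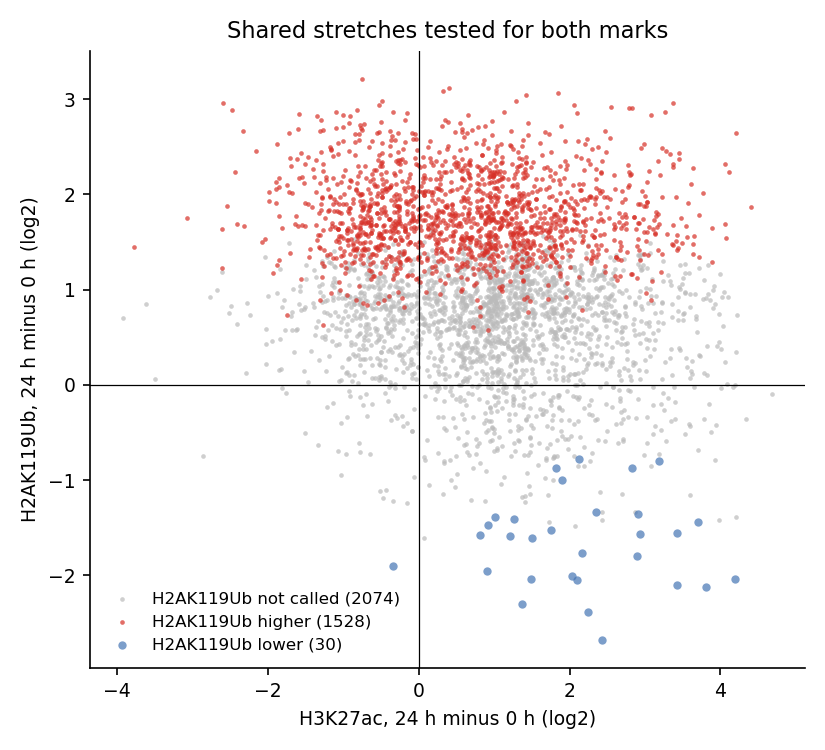
Difference between 24 h and 0 h in H3K27ac (horizontal, log2 of signal share plus 1) against that in H2AK119Ub (vertical, same scale) for the 3632 shared stretches tested for both marks; colours give the H2AK119Ub call. Most points lie above 0 for H2AK119Ub (1528 called higher), and 29 of the 30 called lower lie to the right of 0 for H3K27ac.

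The stretches were also sorted by the marks that they carried at 0 h. On 1575 stretches (37.8%) H3K27ac was carried in at least 2 of the 4 groups at 0 h and H2AK119Ub in none. On 333 (7.99%) the reverse held, on 1057 (25.3%) no group at 0 h carried either mark, and 1205 (28.9%) were mixed. At 24 h, at least 2 of the 3 groups outside the rule carried H2AK119Ub on 686 of the 1575 (43.6%). They carried H3K27ac on 161 of the 333 (48.3%). On the 1057 with neither mark these shares were 43.1% and 45.0%. The part of the short H2AK119Ub lists at 0 h in the sizes of these sets was not tested. In the set with H3K27ac first, 821 of 1433 tested gained H2AK119Ub and none lost it. In the set with H2AK119Ub first, 177 of 284 tested gained H3K27ac and none lost it, while H2AK119Ub rose on 15 and fell on 21 of 333. Since the 0 h values made the split, these counts describe it and are not a separate test. An H3K27me3 peak of at least 1 library touched 69 of the 333 (20.7%) and 12 of the 1575 (0.762%). The coding promoters in the set with H3K27ac first had a median CG ratio of 0.67 (n = 465) and those in the set with H2AK119Ub first 0.786 (n = 147), close to 0.791 (n = 425) for stretches with neither mark at 0 h and 0.763 (n = 572) for mixed ones.

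Most stretches at B cell receptor, surface and identity genes lay in the set with H3K27ac first: 9 of 10, 14 of 19 and 22 of 26, beside 37.8% of all shared stretches. The others were mixed, among them those of Ikzf1, Spi1, Cxcr4 and Ms4a1. These lists name genes of resting B cells, which favours H3K27ac at 0 h. Housekeeping genes (3 of 3), T cell markers (4 of 6) and Toll-like receptor and interferon genes (7 of 11) leaned the same way. Counts were lower for cell cycle genes (2 of 15), Polycomb subunits (3 of 14) and acetyltransferases, deacetylases and bromodomain genes (2 of 12). All 9 touched genes of B cell receptor signalling (among them Blnk, Cd79a, Cd79b, Fcgr2b, Pik3ap1, Prkcb, Ptpn6 and Vav1) had a stretch with H3K27ac first. H2AK119Ub rose on 7 of the 10 stretches at these genes, on 17 of 19 at follicular surface, homing and MHC class II genes and on 16 of 25 at identity factors, and fell on none. H3K27ac rose on 1 of 10, 2 of 19 and 1 of 26, and fell on 3, 8 and 2. Of all shared stretches tested, 41.4% rose in H2AK119Ub, and 32.7% rose and 12.9% fell in H3K27ac. Of all regions tested, 18.7% rose in H2AK119Ub, and 33.1% rose and 9.48% fell in H3K27ac. At Cd79b, the signalling chain of the B cell receptor, a stretch of 17786 bp (chr11:106302753-106320538, which also reaches Scn4a and Gh) had no H2AK119Ub in 11 of 12 lists at 0 h and 1.89 ppm per kb in the other. At 24 h its H2AK119Ub was 8.77, 6.39 and 5.40 ppm per kb in Xist fl/fl mb1-cre, 3.46, 5.61 and 4.20 in TAT-Cre WT and 2.75, 6.04 and 4.38 in TAT-Cre Xist fl/fl cells. All 9 lists at 24 h thus lay above all 12 at 0 h, with a log2 difference of 2.41 ± 0.37 (SE, limma adjusted p = 7.55e-05). Its H3K27ac was 23.0 to 57.1 ppm per kb at 0 h and 18.0 to 43.5 at 24 h, a difference of -0.53 ± 0.15 (limma adjusted p = 0.0081). The fall was not called without replicate 1 (adjusted p = 0.0891), without replicate 3 or without the short lists, and the covered share of the region changed by 0.000900.

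Irf8, a transcription factor of B cells and myeloid cells, had a stretch of 8170 bp within its locus (chr8:120742504-120750673). H2AK119Ub was 0 in 10 of 12 lists at 0 h and 1.90 and 1.14 ppm per kb in the others. At 24 h it was 4.34, 4.02 and 5.80 in Xist fl/fl mb1-cre, 7.66, 8.07 and 1.91 in TAT-Cre WT and 5.18, 3.76 and 4.53 in TAT-Cre Xist fl/fl cells, and the times came close only at 1.91 and 1.90. The difference was 2.23 ± 0.40 (limma adjusted p = 0.000323), and without replicate 1 1.98 (adjusted p = 0.0501). At Cd37, where the stretch of 14333 bp (chr7:45229260-45243592) covers the CG-poor promoter shown above, H2AK119Ub rose by 1.74 ± 0.39 (limma adjusted p = 0.00285). This call was lost without replicate 1 (adjusted p = 0.0528) and with trimmed lists (1.38, adjusted p = 0.0639). At Cd79a, the other signalling chain, the call (1.17 ± 0.38, limma adjusted p = 0.028) rested on 5 of 9 lists at 24 h, and 4 had no peak. It was lost without replicate 3 (adjusted p = 0.14) and without the short lists (adjusted p = 0.0989).

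Genes of activation were divided between the sets. H2AK119Ub rose on 17 of 36 stretches and H3K27ac on 16 of 40, with 6 falling. These shares lay near those of all shared stretches tested, 41.4% for H2AK119Ub, and 32.7% rising and 12.9% falling for H3K27ac. The stretch of 14230 bp over Lta and Tnf (chr17:35199538-35213767), the genes of the cytokines lymphotoxin alpha and tumour necrosis factor, had no H2AK119Ub in 11 of 12 lists at 0 h and 0.569 ppm per kb in the other. At 24 h it had 5.03, 9.87 and 9.38 in Xist fl/fl mb1-cre, 7.01, 7.70 and 5.83 in TAT-Cre WT and 5.27, 6.93 and 6.37 in TAT-Cre Xist fl/fl cells. This was a difference of 2.98 ± 0.35 (limma adjusted p = 4.57e-06), with all 9 lists above all 12. With lists trimmed to equal length the difference was 1.46 (adjusted p = 0.0627). H3K27ac there was 15.6 to 35.0 ppm per kb at 0 h and 11.4 to 21.6 at 24 h. At Nr4a1 (chr15:101260110-101268829, 8720 bp) H2AK119Ub was 0 in 9 of 12 lists at 0 h and 1.17 to 1.43 in the others, against 3.17 to 11.6 at 24 h (2.44 ± 0.39, limma adjusted p = 0.000104, and 0.0656 with trimmed lists). Its H3K27ac varied within groups, from 0 to 18.2 ppm per kb at 0 h, and was not called (adjusted p = 0.769).

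At other activation genes acetylation was the mark that arrived. Batf, an AP-1 factor of activated lymphocytes, had no H3K27ac on its stretch of 6928 bp (chr12:85701284-85708211) in 11 of 12 lists at 0 h and 6.74 ppm per kb in the other. At 24 h it had 13.6, 15.6 and 12.6 in Xist fl/fl mb1-cre, 18.1, 18.8 and 13.6 in TAT-Cre WT and 22.7, 33.0 and 20.3 in TAT-Cre Xist fl/fl cells (3.91 ± 0.37, limma adjusted p = 6.11e-07). H2AK119Ub there was 0 to 3.74 at 0 h and 0 to 9.25 at 24 h and was not called (adjusted p = 0.0982). The Bcl2l1 stretch (chr2:152825208-152832745, 7538 bp) carried 6.61 to 20.2 ppm per kb of H2AK119Ub in all 12 lists at 0 h and 4.65 to 11.8 at 24 h (adjusted p = 0.138). Its H3K27ac was 0 in all 12 lists at 0 h and 7.57 to 14.7 in 8 of 9 at 24 h (3.03 ± 0.42, limma adjusted p = 2.92e-05). At the plasma cell and germinal centre genes H3K27ac rose on 3 of 4 stretches, those of Xbp1 (3.21 ± 0.52), Prdm1 (2.14 ± 0.48) and the death receptor gene Fas (1.86 ± 0.41, limma adjusted p = 0.000125, 0.00205 and 0.00183), and H2AK119Ub on none. Of all shared stretches tested, 32.7% rose in H3K27ac and 41.4% in H2AK119Ub. Without replicate 1 the Prdm1 call was lost (limma adjusted p = 0.051).

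Among chromatin genes, H2AK119Ub rose on 7 of 14 stretches at Polycomb subunits and 5 of 10 at acetyltransferases, deacetylases and bromodomain genes, near the 41.4% of all shared stretches. H3K27ac rose on 6 of 13 and 7 of 12 and fell on none, where 32.7% of all shared stretches rose and 12.9% fell. At Brd3 (chr2:27472070-27477234, 5165 bp) H2AK119Ub was 0 in 11 of 12 lists at 0 h and 2.84 ppm per kb in the other, and 4.33 to 9.32 in the 9 lists at 24 h (2.65 ± 0.37, limma adjusted p = 2.79e-05). H3K27ac at Brd3 was found in Xist fl/fl mb1-cre cells at 24 h (6.60, 7.06 and 4.75) and in 1 of 6 TAT-Cre lists at 24 h (0.257). The stretch at Brd3 thus gained H2AK119Ub in both systems, while its acetylation at 24 h was nearly all in mb1-cre cells. At Hdac7 (chr15:97819466-97833272, 13807 bp) H2AK119Ub was 0 to 2.25 at 0 h and 3.43 to 10.7 at 24 h (2.33 ± 0.39, limma adjusted p = 0.000186), with H3K27ac of 14.8 to 34.9 at 0 h and 12.7 to 32.2 at 24 h. Kdm2b, which encodes the variant complex subunit that binds unmethylated CG dinucleotides, gained H2AK119Ub at its own promoter (2.07 ± 0.40, limma adjusted p = 0.000667, and 0.0511 without replicate 1).

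Of the 10 longest stretches, of 19044 to 26045 bp, 9 gained H2AK119Ub. So did 77% of the tested stretches over 8000 bp, to which these 10 belong, 41.4% of all shared stretches and 18.7% of all regions. The longest lay at Cxxc5 on chromosome 18, a gene for a protein with a CG-binding domain (2.51 ± 0.36, limma adjusted p = 3.31e-05). Others were Chst15 (1.99 ± 0.36), Sema4b (1.88 ± 0.40) and Cnp with Dnajc7 (2.38 ± 0.36, limma adjusted p = 0.000404, 0.0019 and 5.98e-05). The Chst15 call was lost with trimmed lists (adjusted p = 0.114). The exception was the long non-coding Gm46343 (chr12:25298484-25322982), where H3K27ac was 0 in 11 of 12 lists at 0 h and 1.98 in the other, and 3.94 to 10.2 at 24 h (2.97 ± 0.31, limma adjusted p = 1.42e-06). H2AK119Ub there was 0 to 3.71 at 0 h and 0.543 to 5.39 at 24 h (adjusted p = 0.376).

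On 20 stretches H2AK119Ub fell and H3K27ac rose. In Itpr1, the gene of a calcium channel of the endoplasmic reticulum, the stretch of 3276 bp (chr6:108551944-108555219) had 5.70 to 20.1 ppm per kb of H2AK119Ub in the 12 lists at 0 h. At 24 h it had 1.85, 0 and 1.25 in Xist fl/fl mb1-cre, 6.95, 7.56 and 6.61 in TAT-Cre WT and 0, 0 and 4.74 in TAT-Cre Xist fl/fl cells (-2.04 ± 0.39, limma adjusted p = 0.000667). H3K27ac was 0 in all 12 lists at 0 h and 11.4 to 30.2 in all 9 at 24 h (4.20 ± 0.26, limma adjusted p = 7.97e-09).

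H3K27me3 was rare on the shared stretches. A peak of at least 1 library touched 170 (4.08%), 130 at 0 h and 82 at 24 h outside the group that chose them, and 48 (1.15%) were covered over at least 50% in at least 2 libraries. Only 53 could be tested, of which 2 fell over time (3.77%, against 0.36% of all regions) and none rose, where 0.268% of all regions did. The stretches were chosen for having no H3K27me3 peak at 24 h, so a lean towards lower values at 24 h is built into this comparison. At an unadjusted p under 0.05, 2 rose and 19 fell, beside 1273 and 1249 of all 23877 regions. In Xist fl/fl mb1-cre cells alone 2 rose and 2 fell, where 7.98% of all regions rose and 0.088% fell. Between genotypes limma called none of the 53, and 0.00419% of all regions lower. 4 of the 48 are named here after their values were seen: Mfsd2a, Ifnlr1, Dusp4 and Myb, each without H3K27me3 over 50% of the stretch in any list at 24 h.

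Loss of Xist was compared as the mean of the differences in mb1-cre cells at 0 h and TAT-Cre cells at 24 h, since the WT mb1-cre lists at 24 h chose the stretches. H2AK119Ub was called on none of the 3906 shared stretches, as on none of all regions (0.0%) by limma, with 70 higher and 78 lower at an unadjusted p under 0.05, beside 768 and 695 of all 38679 regions. Within TAT-Cre cells at 24 h 4 were higher and 6 lower, beside 0.14% and 0.158% of all regions. H3K27ac was lower on 32 of 3883 (0.824%) and higher on none, beside 0.834% lower over all regions, a nearly equal share. The calls varied with the libraries: none without replicate 1, 325 called without replicate 2 (46 higher and 279 lower) and 138 without replicate 3. Within TAT-Cre cells at 24 h none was higher (0.00667% of all regions were) and 53 were lower (1.36%, against 1.4%) and within mb1-cre cells at 0 h 9 (0.232%, against 0.187%). The change over time in TAT-Cre cells differed between genotypes on 3 stretches in one direction and 37 in the other (0.0773% and 0.953%, against 0.0534% and 0.881% of all regions). At Dynll1 (chr5:115298846-115302012), which encodes a dynein light chain, H3K27ac at 24 h was 7.60, 8.29 and 6.61 ppm per kb in TAT-Cre WT cells, 0 in all 3 TAT-Cre Xist fl/fl lists and 4.99, 6.61 and 5.60 in Xist fl/fl mb1-cre cells, and 0 in all 12 lists at 0 h (genotype difference -1.54, limma adjusted p = 0.00282, 0.767 without replicate 1 and 0.151 with no filter). Peaks in TAT-Cre Xist fl/fl H3K27ac lists at 24 h covered 31.8 to 55.5 Mb of the autosomes, against 54.4 to 80.5 Mb in TAT-Cre WT lists, and the part that list size had in these calls was not tested.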

How the data were processed

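CUT&RUN peak lists of 77 libraries were used (mm10). The submitters' processing notes name Trimmomatic 0.32, Bowtie2 2.3.4.1, Picard and deepTools 3.5.1. The peak columns follow the SEACR layout, and each peak's total and highest signal are the values the authors deposited. The labels do not say how the yeast spike-in entered this signal, and read depth is unknown. The members and gene lists were chosen with earlier results of these data known.

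Autosomal peaks of the WT mb1-cre 24 h lists were cut into stretches by the rule given in the report. The signal of each library was expressed in ppm of its autosomal peak signal per kb, which sets all libraries to 1 total, and log2 of this value plus 1 was fitted with limma 3.58.1 (R 4.3.3, moderated with a mean trend) on all regions with a peak in at least 3 libraries, without the WT mb1-cre 24 h group. Benjamini-Hochberg adjusted p was over all regions tested. Counts and overlaps used Python 3.11.15, numpy 2.4.6 and pandas 2.3.3. Simulated shifts of 3 and 6 in log-odds were recovered in 36% and 86% of 100 regions each for H3K27ac (15007 regions tested). The shares were 14% and 49% for H2AK119Ub (39065) and 17% and 89% for H3K27me3 (23919). The simulations also gave 27 false calls for H3K27ac, 14 for H2AK119Ub and 9 for H3K27me3. The calls on the measured data may thus hold false ones too, and their share was not estimated. Named stretches were the 10 longest, the 5 with the smallest p per direction of each pooled contrast, and those at up to 4 genes of each list, those with most shared bases first. Promoters came from RefSeq tables of GRCm38.p6, which hold 18 of the 19 autosomes. One H3K27me3 library of Xist fl/fl mb1-cre cells (replicate 5) is titled 0 h but has a stimulated treatment entry. It was used as 0 h, and as 24 h in an alternative. The alternatives that dropped short lists were chosen after seeing the data. Results that need items withheld for evaluation are not reported here.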

Additional observations from a re-analysis of the deposited data

Results flagged for a closer look

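In TAT-Cre cells the H3K27ac difference between 24 h and 0 h differed between the genotypes on 40 of 3883 shared stretches, by the interaction term of the limma fit (3 more positive in Xist fl/fl cells, 37 more negative). Over all 14986 regions tested the shares were 0.0534% and 0.881%, against 0.0773% and 0.953% of the shared stretches. At Tex2 (chr11:106502916-106504253), for instance, H3K27ac was 0 in all 0 h lists, 12.0, 16.4 and 10.2 ppm per kb in TAT-Cre WT and 0 in all 3 TAT-Cre Xist fl/fl lists at 24 h (interaction -3.77 ± 0.55 SE, limma adjusted p = 0.00376), and 12.4, 11.9 and 7.92 in Xist fl/fl mb1-cre cells at 24 h. The TAT-Cre Xist fl/fl lists at 24 h held 4292, 3669 and 6244 peaks and the TAT-Cre WT lists 7452, 5456 and 10009, and the part of list length in these calls was not tested.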

How the results depend on the processing

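The number of shared stretches was 1353 when only peaks in the upper 50% of their list by highest signal were used, 1893 with peaks in all 3 lists, and 2327 to 3118 when 1 replicate was left out. With lists trimmed to the shortest, 233 stretches rose in H3K27ac and 191 in H2AK119Ub over time, 1 was called for H3K27me3, and 19 and 1 were called between genotypes for H3K27ac and H2AK119Ub. Trimming moved the median of all regions from 0.80 to -0.09 for H3K27ac and from 0.45 to -0.46 for H2AK119Ub. With array weights the counts were 1989 rising in H3K27ac, 16 called over time for H3K27me3, and 598 and 8 called between genotypes for H3K27ac and H2AK119Ub. Without the short 0 h lists, 735 rose in H3K27ac, 1032 rose in H2AK119Ub and 75 were called between genotypes for H3K27ac. With the covered share of a region, 50 fell in H3K27ac, and 55 and 2 were called between genotypes for H3K27ac and H2AK119Ub. With no filter these were 0 and 5, and with 10 added before the log2 2 were called for H2AK119Ub. With replicate 5 of H3K27me3 placed at 24 h, 1 stretch was called over time.

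Leaving out 1 replicate number gave 493 to 1946 rising and 255 to 690 falling in H3K27ac, 460 to 1305 rising and 13 to 18 falling in H2AK119Ub, 1 to 3 called over time for H3K27me3, and 0 to 325 called between genotypes for H3K27ac. The median share of bases under H3K27ac went from 46.6% to 25.8% at 0 h and from 70.8% to 23.8% at 24 h with trimmed lists, and to 28.2% and 47.5% with the upper 50%. For H2AK119Ub it went from 19.3% to 2.54% and from 50.9% to 10.2% with trimmed lists, and to 33.1% at 24 h with the upper 50%. As a covered share, the H3K27ac difference over time changed sign at Cd2 (0.00985), Sema4b (0.00961), Cd79b (0.000900), Zmiz1 (0.0359) and Lta with Tnf (0.0580). The cause of these shifts was not tested, beyond trimming and fewer libraries leaving fewer regions to test.

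Same-numbered libraries of different groups had a median correlation of -0.01 for H3K27ac, -0.00 for H2AK119Ub and 0.01 for H3K27me3. Single pairs reached 0.28, 0.37 and 0.26. Most of these pairs joined different genotypes or systems, so the medians cannot exclude a pairing of 0 h with 24 h. The numbers were not taken as pairs in the main fit. With the replicate block, 1230 stretches rose and 500 fell in H3K27ac, 1613 rose and 31 fell in H2AK119Ub, 3 were called over time for H3K27me3, and 24 were called between genotypes for H3K27ac. Lists of peaks hold no value where no peak was called, so absence there means no call and not an absence of the mark.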

Other observations

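On the X chromosome, which the choice of stretches left out, the same rule gave 26 stretches in WT mb1-cre cells at 24 h, 36 in TAT-Cre WT, 1 in Xist fl/fl mb1-cre and 3 in TAT-Cre Xist fl/fl cells. At 0 h it gave 0, 5, 0 and 1 in the same order of groups. On the autosomes the 24 h numbers were 4170, 3988, 2445 and 2038. These are numbers per group from majority lists, with no test.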
